A study of Mus musculus with 69 samples.

Results

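Hearts taken 2 h after inhalation of hydrogen cyanide (HCN) were compared with hearts taken 2 h after breathing air. The arrays were chosen by their titles, 4 for HCN and 4 for air, and they are 8 of the 69 arrays of the series. The series measured RNA from whole hearts of adult male CD-1 mice of 20 to 35 g, which were not anesthetized, on the Affymetrix HT MG-430 PM array. The 4 HCN mice breathed 327 ppm HCN through the nose only, and the 4 air mice breathed air in the same way. Each array is labelled as a biological replicate. The p-values of the changes rest on a spread between hearts that was estimated over all 69 arrays, and not from these 8 alone. The length of the exposure is not given in the sources used here. Changes at 2 h were set beside those of HCN against air at 1, 4 and 24 h (4 arrays per group) and of 4 mice injected under the skin with 8.0 mg/kg potassium cyanide (KCN) against 3 injected with saline, also at 2 h.

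Cyanide binds the active site of cytochrome c oxidase, where the respiratory chain passes its electrons to oxygen, so that mitochondria stop using oxygen. Heart muscle makes most of its ATP by respiration, and cyanide poisoning is also known to drive the release of adrenal hormones and to disturb breathing and blood pressure. Stressed heart cells are known to switch on immediate early genes, which encode transcription factors and need no new protein for their induction, followed by inflammatory, hormone-responsive and vascular genes.

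All values are log2 signals, in which 1 unit is a 2-fold difference. Values for the 4 arrays of a group are listed from replicate 1 to replicate 4, and the number after ± of a change is its standard error in the limma fit. Probe sets were tested where 1 or more of the 18 group means exceeded 3.23, the median log2 signal over all group means and probe sets, which kept 26755 of 45037. A call means a Benjamini-Hochberg adjusted p under 0.05 in limma over all tested probe sets. A gene is represented by its tested probe set of highest mean over all arrays. It counts as supported where at least 2 of its probe sets were called in 1 direction and none in the other.

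The hearts were rich in cardiomyocyte RNA in both groups. The mean log2 signal of 9 ventricular markers ran from 12.98 to 13.10 over the 8 arrays. RNA quality was not alike in the groups. The 3'/5' ratio of the actin control, on the log2 scale, was 0.44, 0.40, 0.32 and 0.65 in the air arrays and 1.49, 1.95, 0.79 and 0.64 in the HCN arrays. HCN replicates 1, 2 and 3 stood above all air arrays, replicates 1 and 2 by far the most, and replicate 4 lay just under the highest of them. The difference in means was 0.77 (exact permutation test, two-sided, p = 0.0571, adjusted p = 0.0857 over 3 measures, smallest possible p 0.0286). The same ratio for Gapdh was -0.16, -0.16, -0.12 and -0.17 in air and 0.58, 0.75, 0.07 and 0.12 with HCN, so that the groups did not overlap (exact permutation p = 0.0286, adjusted p = 0.0857). The 18S ribosomal control was lowest in the same pair of HCN arrays, at 12.17 and 11.49 against 12.48 to 12.99 in air, and differed by -0.32 over the groups (exact permutation p = 0.514). It differed by 0.00738 without HCN replicate 2. Such a ratio rises where the 5' part of a transcript is under-represented, so each result below was also computed without HCN replicates 1 and 2, which leaves 2 HCN arrays against 4 air arrays.

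**Figure D1:**
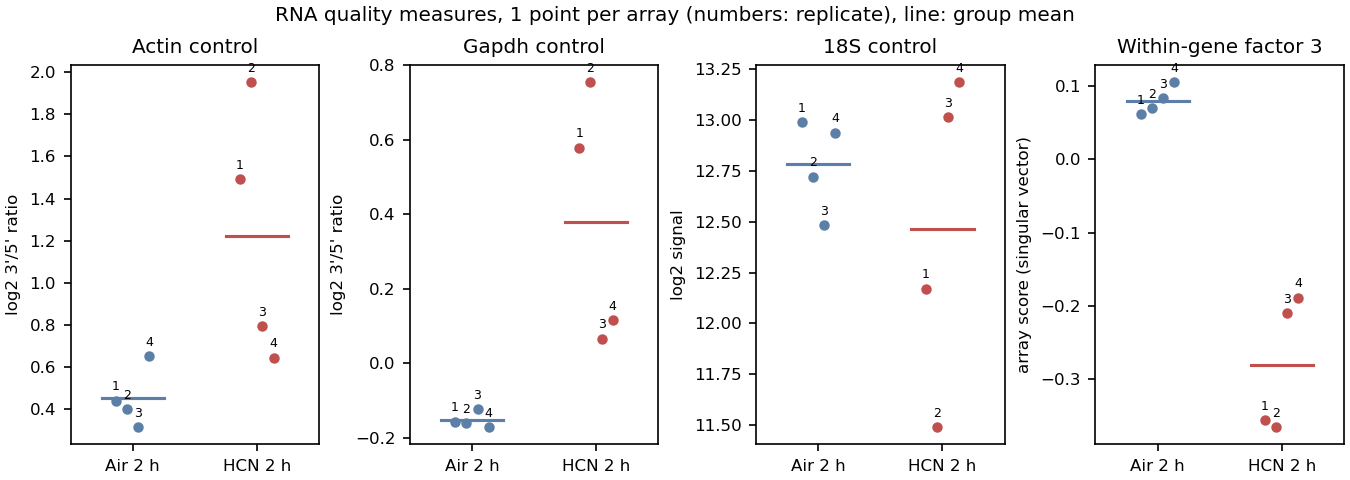
RNA quality measures in the 4 air and the 4 HCN arrays at 2 h: log2 3'/5' ratios of the actin and Gapdh controls, the log2 signal of the 18S control, and the score of each array on the third of 3 factors that describe how the probe sets of a gene differ from their mean. Each point is an array with its replicate number and lines are group means. HCN replicates 1 and 2 have the highest actin ratios, 1.49 and 1.95, and the score of the third factor runs from 0.06 to 0.10 in air and from -0.37 to -0.19 with HCN.

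Markers of other cells also varied between hearts. Air replicate 1 had a mean log2 signal of 5.64 over 9 lymphocyte markers against 3.40 to 4.17 in the other air arrays and 3.27 to 3.94 in the HCN arrays. The T cell gene Cd3d was at 8.92, 3.96, 3.21 and 4.70 in air and at 3.51, 3.58, 3.04 and 3.30 with HCN (-1.84 ± 0.57, adjusted p = 0.0132), and at -0.60 without air replicate 1 (adjusted p = 0.364). Without HCN replicates 1 and 2 its adjusted p was 0.0504. Scgb1a1, which is made by club cells of the airway and not by heart, was at 2.67 in air replicate 1 and 3.27 in HCN replicate 1 and between 8.06 and 12.38 in the other 6 arrays. The airway level did not follow the exposure, and limma called 0 of 10 airway markers, of which 0 had an unadjusted p under 0.05. Neutrophil markers were at a mean of 3.68 to 4.71 in air and 4.18 to 5.17 with HCN, and endothelial markers at 8.02 to 8.30 in air and 7.60 to 8.02 with HCN.

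At 2 h after HCN, 6764 of 26755 probe sets were called (25.3%), of which 2354 rose (8.8%) and 4410 fell (16.5%). Quantile normalization gave 3023 rises and 3508 falls, so that the excess of falls was smaller on that scale. The 4 HCN and 4 air values did not overlap for 4847 tested probe sets (18.1%). Without HCN replicates 1 and 2, 3279 probe sets were called (12.3%), 1170 up (4.37%) and 2109 down (7.88%), and 2744 of them were among the 6764. Of the 6764, 34 had the opposite sign without these arrays. With the actin ratio as a covariate 3018 were called (11.3%). A fit of only the HCN and air arrays at 2 h, with their own spread, called 1936. With the first 2 or all 3 of the within-gene factors as covariates, 949 and 10 were called, and the second and the third of these factors each separated the groups completely, so that they and the exposure cannot be told apart.

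By representative probe set, 865 of 12432 genes rose (6.96%) and 2281 fell (18.3%), with a median change of -0.07. The groups were also separate for 555 of the rises (4.46% of all genes) and 1339 of the falls (10.8%). Without the 2 arrays 386 rose (3.1%) and 1257 fell (10.1%), and 353 of the 865 rises and 1055 of the 2281 falls were called both times. Without air replicate 1, 714 rose (5.74%) and 1843 fell (14.8%). The counts of each gene list below are to be read beside these shares. Several probe sets could be compared for 4876 genes. Of these, 164 were supported rises (3.36%) and 416 supported falls (8.53%). In 181 of the 761 genes with 2 or more called probe sets (23.8%) the calls ran in both directions, against 17 of 248 (6.85%) without the 2 arrays. The same count was 4 of 51 for HCN at 1 h, 1 of 211 at 4 h, 188 of 443 (42.4%) at 24 h and 15 of 126 for KCN at 2 h. The 149 genes examined by name below include some that were not called at 2 h. Of the 149, 28 lost their call at the same sign without the 2 arrays, 37 with the actin covariate and 39 in a fit of only the 2 groups. With 2 and 3 within-gene factors 68 and 110 did so. Genes that changed sign, called or not, are counted apart, at 3, 3, 0, 11 and 24 in this order.

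The clearest rise was in immediate early transcription factors. Of the 26 genes on this list, 15 rose and 1 fell, with a median change of 0.88, against a median of -0.07 over all genes, of which 6.96% rose. Without the 2 arrays 12 rose and 1 fell, with a median of 0.91. Atf3, a stress-induced member of the ATF/CREB family, was at 5.73, 6.12, 6.87 and 6.03 in air and at 10.66, 10.71, 10.89 and 10.83 with HCN. The groups lay far apart, with little spread among the HCN hearts. The change was 4.59 ± 0.41 (adjusted p = 2.69e-12), or 24-fold.

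The NR4A orphan nuclear receptors, which act downstream of cAMP and calcium signals, rose with it. Nr4a3 was at 6.11, 7.15, 6.68 and 6.81 in air and at 10.44, 9.56, 10.18 and 10.73 with HCN, a change of 3.54 ± 0.45 (adjusted p = 6.72e-08). Nr4a1 was at 6.80, 6.85, 7.07 and 7.50 against 8.85, 9.44, 10.07 and 8.67, a change of 2.21 ± 0.43 (adjusted p = 9.86e-05). Neither gene had overlapping groups. For Nr4a3 the median change of its other tested probe sets was 0.32, well under that of the representative.

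The promoters of Atf3 and Nr4a1 are shown because both genes are textbook targets of the cAMP response element (CRE), bound by the CREB and ATF family. Each is the 250 bases before the gene's start in RefSeq on GRCm38.p6, read 5′ to 3′ on the gene's strand. Capitals mark the CRE core letters TGACG on either strand, so that CGTCA is the same motif read on the other strand. Atf3 (chr1:191183334-191183583, minus strand) holds 1 match and Nr4a1 (chr15:101266596-101266845, plus strand) holds 4. The motif was found in 5836 of 32851 promoters of this length (17.8%), and a match is a description of the letters and not a binding site.
Atf3: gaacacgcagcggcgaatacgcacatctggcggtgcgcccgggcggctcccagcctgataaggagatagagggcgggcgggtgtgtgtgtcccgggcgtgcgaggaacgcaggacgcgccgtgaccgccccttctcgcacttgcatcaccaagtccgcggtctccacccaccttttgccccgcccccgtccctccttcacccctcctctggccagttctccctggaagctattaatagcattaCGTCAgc
Nr4a1: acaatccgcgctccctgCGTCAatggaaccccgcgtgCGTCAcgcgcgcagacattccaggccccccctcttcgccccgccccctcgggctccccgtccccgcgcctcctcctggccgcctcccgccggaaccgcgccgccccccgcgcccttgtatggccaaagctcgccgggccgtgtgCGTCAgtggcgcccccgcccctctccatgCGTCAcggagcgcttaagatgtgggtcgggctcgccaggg

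The growth factor-responsive genes of the list were less uniform at 2 h. Egr1 was at 7.92, 6.98, 6.87 and 7.04 in air and 9.27, 10.49, 9.95 and 8.83 with HCN, a change of 2.43 ± 0.41 (adjusted p = 1.03e-05). Fos, which pairs with Jun proteins to form AP-1, was at 6.12, 5.47, 4.90 and 6.31 against 7.24, 10.01, 7.97 and 6.64, a change of 2.27 ± 0.60 (adjusted p = 0.00378). Its highest value, 10.01, belonged to HCN replicate 2, and without the 2 arrays of high actin ratio its change was 1.61 (adjusted p = 0.121). Without HCN replicate 2 alone it was 1.59 (adjusted p = 0.0596). Jun was the 1 member that fell, from 8.77, 9.15, 9.03 and 8.74 in air to 7.66, 8.65, 8.16 and 7.97 with HCN, a change of -0.81 ± 0.22 (adjusted p = 0.00408), and both its tested probe sets were called. Its level in every HCN heart was below every air heart.

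Among the others, the small Maf protein gene Maff changed by 2.15 ± 0.26, Egr2 by 1.19 ± 0.30, Myc by 1.16 ± 0.21 and the AP-1 partner Fosl2 by 1.08 ± 0.21 (adjusted p = 1.81e-08, 0.00272, 3.60e-05 and 1.08e-04). All 4 had separate groups, and both tested probe sets of Egr2 and of Fosl2 rose. Klf4, an endothelial and smooth muscle transcription factor, was called at 0.62 ± 0.24 (adjusted p = 0.045) but its groups overlapped, it was not called without the 2 arrays (0.48), and its change was -0.05 with the actin covariate. It also lost its call without air replicate 1 or 3 or HCN replicate 1, 2 or 3, at 0.42 to 0.67. Junb (0.41 ± 0.32, adjusted p = 0.381) and the representative probe set of Klf6 (0.29 ± 0.20, adjusted p = 0.295) were not called, although the other 2 tested probe sets of Klf6 rose. They were at 0.99 and 0.70 without the 2 arrays (adjusted p = 0.0722 and 0.0289), so that Klf6 was then called.

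**Figure D2:**
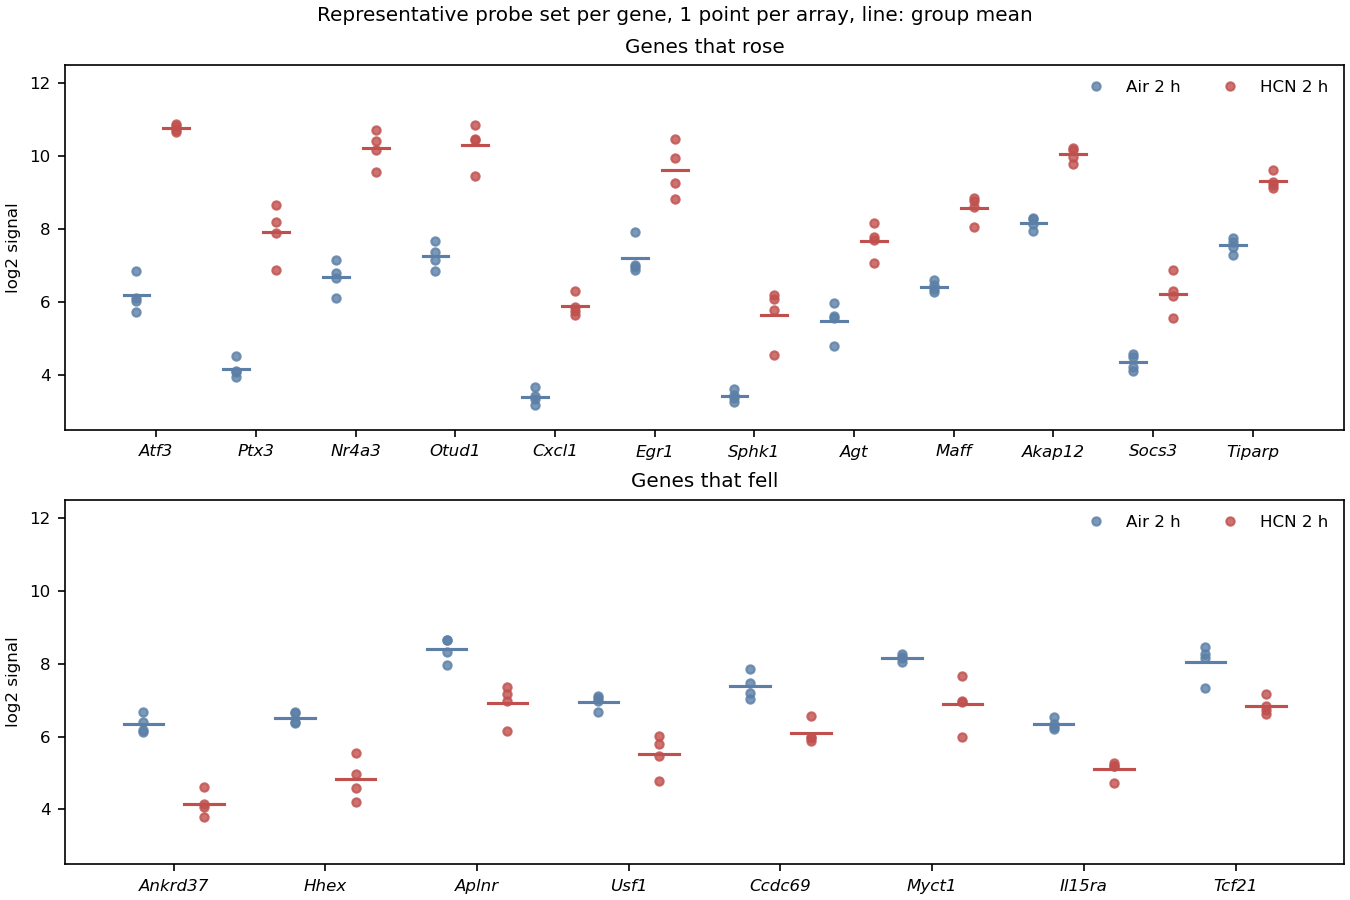
Log2 signal of the representative probe set in each of the 4 air and 4 HCN arrays at 2 h, for 12 genes that rose (top) and 8 that fell (bottom). Each point is an array and lines are group means. In all 20 genes the groups are separate, most widely for Atf3, at 5.73 to 6.87 in air and 10.66 to 10.89 with HCN.

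Some genes on the list of signalling brakes were among the largest rises, but the list as a whole ran both ways. It counted 5 rises (20.8%, against 6.96% of all genes) and 4 falls (16.7%, against 18.3%) among 24. Of the 24 changes 13 were above 0, and the 4 members named here all rose. Without the 2 arrays 6 rose and 1 fell. Sgk1, a kinase induced by serum and by glucocorticoids, was at 8.01, 8.13, 8.24 and 8.37 in air and 9.82, 10.14, 9.87 and 9.56 with HCN, a change of 1.66 ± 0.21 (adjusted p = 3.51e-08). Errfi1, which inhibits the EGF receptor, changed by 1.91 ± 0.28, Socs3, which blocks JAK-STAT signalling from the IL-6 receptor family, by 1.88 ± 0.30, and the salt-inducible kinase Sik1 by 1.73 ± 0.32 (adjusted p = 1.07e-06, 6.05e-06 and 4.49e-05). All 4 had separate groups.

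Of the genes outside the lists, the deubiquitinase gene Otud1 was at 6.86, 7.17, 7.67 and 7.39 in air and at 10.49, 10.87, 10.46 and 9.46 with HCN, a change of 3.05 ± 0.27 (adjusted p = 2.69e-12). Akap12, a scaffold for protein kinase A, was at 8.28, 8.30, 7.95 and 8.16 against 10.17, 9.81, 10.24 and 9.998, a change of 1.88 ± 0.17 (adjusted p = 6.41e-12). In both genes every HCN heart lay above every air heart. Tiparp, a target of the aryl hydrocarbon receptor that acts back on it, rose with all 3 of its probe sets, from 7.52, 7.67, 7.29 and 7.77 to 9.64, 9.31, 9.22 and 9.15 for the representative (1.77 ± 0.18, adjusted p = 1.0e-10). The antiproliferative gene Tob2 rose with 4 of 5 probe sets, by 1.21 ± 0.19 (adjusted p = 3.32e-06).

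NF-kB feedback genes and chemokines rose without a single fall. NF-kB is the transcription factor that drives much of the inflammatory response and induces its own inhibitors. Of 27 measured members of this list, 14 rose and 0 fell, with a median of 0.60. Without the 2 arrays 8 rose and 0 fell, with a median of 0.43. Nfkbia, which encodes the inhibitor that holds NF-kB in the cytoplasm, was at 9.06, 8.72, 8.76 and 8.73 in air and 10.32, 9.86, 10.46 and 9.88 with HCN, a change of 1.31 ± 0.15 (adjusted p = 4.31e-09). Cxcl1, a chemokine that attracts neutrophils, was at 3.42, 3.33, 3.19 and 3.67 against 5.64, 6.32, 5.76 and 5.86, a change of 2.49 ± 0.32 (adjusted p = 9.43e-08). The air values of Cxcl1 lay near the filter level of 3.23, and all HCN values lay well above it.

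The promoters of Cxcl1 (chr5:90890995-90891244, plus strand) and Nfkbia (chr12:55492648-55492897, minus strand) are shown because both genes are established NF-kB targets and rose together. Capitals here mark matches to the NF-kB motif, searched by its consensus on both strands. Cxcl1 holds 2 overlapping matches in 1 run of capitals and Nfkbia holds 1. The motif was found in 1281 of the 32851 RefSeq promoters (3.9%). The Atf3 and Nr4a1 promoters hold 0 matches to it, while that of Cxcl1 also holds 2 of the CRE letters, not in capitals.
Cxcl1: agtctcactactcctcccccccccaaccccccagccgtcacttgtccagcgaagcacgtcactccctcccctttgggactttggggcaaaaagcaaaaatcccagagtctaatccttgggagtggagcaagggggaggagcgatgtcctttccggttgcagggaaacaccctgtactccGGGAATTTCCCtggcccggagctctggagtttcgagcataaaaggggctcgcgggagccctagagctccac
Nfkbia: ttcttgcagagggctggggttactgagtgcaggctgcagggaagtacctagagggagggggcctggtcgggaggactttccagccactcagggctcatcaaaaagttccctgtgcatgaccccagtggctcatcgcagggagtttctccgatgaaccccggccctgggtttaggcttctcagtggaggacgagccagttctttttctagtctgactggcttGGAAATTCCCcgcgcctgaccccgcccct

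Ccl2, which attracts monocytes, was at 4.32, 4.33, 4.34 and 4.28 in air and 4.91, 4.45, 6.06 and 6.92 with HCN, a change of 1.27 ± 0.34 (adjusted p = 0.00358). It was highest in HCN replicates 3 and 4, the arrays of lower actin ratio, and its change without replicates 1 and 2 was 2.17 (adjusted p = 4.02e-05). Without HCN replicate 4 it was 0.82 (adjusted p = 0.0611). The anti-apoptotic gene Birc3 changed by 1.12 ± 0.14, the NF-kB cofactor gene Bcl3 by 1.46 ± 0.26, Nfkbiz by 1.08 ± 0.27 and the leukocyte adhesion gene Icam1 by 1.24 ± 0.20 (adjusted p = 3.75e-08, 2.22e-05, 0.00178 and 8.17e-06). Of the 3 tested probe sets of Nfkbiz and the 2 of Birc3 only the representative was called, and the others had medians of 0.18 and 0.19. Litaf, outside the list, which is induced by endotoxin in macrophages, rose with 2 of 3 probe sets, by 1.31 ± 0.14 (adjusted p = 1.15e-09). The feedback inhibitor Tnfaip3 was at 0.60 ± 0.23 (adjusted p = 0.0513) and was not called, but was called without air replicate 1 (0.90, adjusted p = 0.00321) or without HCN replicate 3 or 4 (0.68 and 0.72). It was at 0.28 without HCN replicates 1 and 2 (adjusted p = 0.556) and at 0.32 with the actin covariate.

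Genes of the IL-6 family and the acute phase response also moved one way. Of 23 measured, 10 rose and 0 fell, with a median of 0.51, and 7 rose and 0 fell without the 2 arrays. Ptx3, a secreted pentraxin of innate immunity, was at 4.08, 3.95, 4.12 and 4.51 in air and 7.91, 6.88, 8.68 and 8.21 with HCN, a change of 3.75 ± 0.34 (adjusted p = 7.20e-12). Cebpd, whose protein activates acute phase genes, was at 8.31, 8.32, 8.62 and 8.09 against 10.32, 9.83, 10.30 and 10.01, a change of 1.78 ± 0.22 (adjusted p = 2.53e-08). Il6ra, the receptor chain that binds IL-6, changed by 1.07 ± 0.19 at its representative probe set (adjusted p = 3.56e-05), and its other probe set was at -0.27. Il6 itself lay under the filter level in air, at 2.51, 2.45, 2.57 and 2.67, and was at 2.46, 2.66, 3.13 and 3.40 with HCN (0.36 ± 0.19, adjusted p = 0.168). Only HCN replicates 3 and 4 stood above all air arrays, and without the other 2 the change was 0.72 and called (adjusted p = 0.0298).

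Some neutrophil markers also rose. Of 10, 5 rose and 0 fell, and 1 rose and 0 fell without the 2 arrays. Their mean log2 signal was 4.71, 3.72, 3.68 and 3.88 in air and 5.17, 5.01, 4.30 and 4.18 with HCN. It was thus highest in HCN replicates 1 and 2, and replicates 3 and 4 lay below air replicate 1. S100a8, an abundant neutrophil protein gene that is also on the acute phase list, was at 6.80, 4.67, 4.43 and 5.26 in air and 7.64, 8.53, 6.61 and 6.32 with HCN (1.98 ± 0.53, adjusted p = 0.00413). S100a9 changed by 1.68 ± 0.52 (adjusted p = 0.0137). Both overlapped between groups, with air replicate 1 above the 2 lowest HCN arrays, and neither was called without the 2 arrays (1.17, adjusted p = 0.225, and 0.90, adjusted p = 0.367). S100a9 also lost its call without air replicate 2 (1.46) or HCN replicate 2 (1.32). Clec4d, a lectin of neutrophils and monocytes, was at 3.17, 3.10, 2.95 and 3.37 in air and 4.55, 4.55, 3.96 and 3.95 with HCN (1.10 ± 0.14, adjusted p = 6.35e-08) and kept its call at 0.80 without the 2 arrays (adjusted p = 5.98e-04). Its air values lay near the filter level of 3.23, and those of 3.17, 3.10 and 2.95 were under it. The part of these cells in the rise of inflammatory genes was not tested.

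Glucocorticoid-responsive genes, which answer to the adrenal stress hormone corticosterone, rose in number as well. Of 21 measured, 10 rose and 1 fell, with a median of 0.45, and 7 rose and 1 fell without the 2 arrays. Several are shared with other lists, such as Nfkbia, Cebpd, Sgk1 and Errfi1. Ddit4, an inhibitor of mTOR that also answers to hypoxia, was at 8.33, 8.33, 8.48 and 9.02 in air and 10.61, 10.41, 10.64 and 9.83 with HCN, a change of 1.83 ± 0.27 (adjusted p = 1.04e-06). The clock gene Per1 was at 5.10, 5.71, 5.69 and 5.71 against 7.48, 7.34, 7.07 and 6.18 (1.47 ± 0.39, adjusted p = 0.0038), with its lowest HCN value in replicate 4, and was not called without the 2 arrays (1.07, adjusted p = 0.131). Fam107a rose with all 3 probe sets, from 8.04, 8.58, 8.05 and 8.69 to 10.07, 9.32, 9.40 and 9.53 (1.24 ± 0.34, adjusted p = 0.00444), and had an adjusted p of 0.063 without the 2 arrays.

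Other members of this list gave less even values. Pdk4, the kinase that shuts off pyruvate dehydrogenase, changed by 1.22 ± 0.33 and the cell cycle inhibitor Cdkn1a by 1.27 ± 0.32 (adjusted p = 0.00465 and 0.00195). Of the 2 probe sets of Cdkn1a 1 was called, and the other was at 0.82. Fkbp5, a cochaperone of the receptor itself, was at 8.52, 8.55, 8.18 and 8.85 in air and 9.17, 8.15, 9.10 and 9.42 with HCN (0.44 ± 0.29, adjusted p = 0.275), and the metallothionein gene Mt1 at 0.31 ± 0.12 (adjusted p = 0.0532). Neither was called at its representative probe set, although 1 of the 2 probe sets of Mt1 rose and the representative was called without air replicate 2 or 4 or HCN replicate 2, at 0.35 to 0.41. Of 20 p53 and apoptosis genes 7 rose and 4 fell, and 6 and 2 without the 2 arrays. The growth arrest genes Gadd45g and Gadd45b changed by 1.49 ± 0.25 and 1.03 ± 0.27 (adjusted p = 1.09e-05 and 0.00352), and the groups of Gadd45b overlapped.

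Vasoactive genes moved in both directions, with 5 rises and 5 falls among 16, and 4 and 3 without the 2 arrays. Agt, which encodes the angiotensin precursor, was at 5.57, 5.99, 5.63 and 4.80 in air and 7.80, 7.07, 8.17 and 7.71 with HCN, a change of 2.19 ± 0.32 (adjusted p = 9.11e-07). The endothelin receptor gene Ednrb changed by 0.92 ± 0.14 and endothelin itself, Edn1, by 0.74 ± 0.17 (adjusted p = 1.41e-06 and 0.00102). The other probe set of Ednrb was at 0.26 and not called. Aplnr, the apelin receptor, which lowers blood pressure and supports contraction, was at 8.33, 8.66, 8.66 and 7.96 in air and 6.98, 7.37, 6.15 and 7.18 with HCN (-1.48 ± 0.28, adjusted p = 8.81e-05), and both its probe sets fell. Adm, a vasodilator peptide gene induced by hypoxia, fell by 0.53 with overlapping groups (SE 0.18, adjusted p = 0.0227), and was not called without air replicate 1 (-0.45) or HCN replicate 3 (-0.31). Pnmt, the last enzyme of adrenaline synthesis, was at 0.14 ± 0.22 (adjusted p = 0.705).

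Some genes of the extracellular matrix rose. Of 34 measured, 9 rose and 0 fell, with a median of 0.24, and 7 rose and 0 fell without the 2 arrays. Metalloproteases of the ADAMTS family, which cut proteoglycans, were among them. Adamts1 was at 6.87, 6.90, 7.19 and 7.21 in air and 8.31, 9.41, 9.54 and 8.16 with HCN (1.81 ± 0.25, adjusted p = 2.90e-07). Adamts9 rose with all 3 probe sets, from 6.34, 6.81, 6.68 and 6.64 to 8.27, 6.91, 8.03 and 8.02 (1.19 ± 0.18, adjusted p = 2.02e-06), where HCN replicate 2 lay just above the highest air array. Adamts4 changed by 1.62 ± 0.23 from air values under the filter level, and Timp3, an inhibitor of such proteases, by 0.96 ± 0.20 with 2 of 4 probe sets called (adjusted p = 4.75e-07 and 3.23e-04).

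The matricellular genes Ccn1 and Ccn2, known targets of YAP and SRF, rose, and every HCN heart lay above every air heart. Ccn1 was at 7.57, 7.67, 8.16 and 7.18 in air and 9.36, 9.36, 9.44 and 8.97 with HCN (1.64 ± 0.31, adjusted p = 6.27e-05), and Ccn2 at 10.77, 10.40, 10.53 and 10.65 against 11.85, 11.83, 11.59 and 11.57 (1.12 ± 0.21, adjusted p = 6.08e-05). Of 17 cardiac stretch and stress genes 4 rose and 1 fell (4 and 0 without the 2 arrays), and these 2 were among them with Hbegf, a growth factor ligand of the EGF receptor (1.25 ± 0.23), and Xirp1, an actin-binding protein gene of the intercalated disc (1.42 ± 0.21; adjusted p = 5.91e-05 and 8.77e-07). The classical load markers Nppa (-0.06 ± 0.07, adjusted p = 0.577) and Nppb (0.07 ± 0.24, adjusted p = 0.875) were not called. Ankrd1 fell by 0.37 (SE 0.13, adjusted p = 0.0296), but its change was -0.01 without the 2 arrays and 0.05 with the actin covariate, and its other probe set was at 0.24. It was not called without air replicate 1 or 3 or HCN replicate 1 or 2, at -0.35 to -0.15.

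Clotting and fibrinolysis genes counted 5 rises and 1 fall among 13, and 4 and 1 without the 2 arrays. The thrombin receptor gene F2r changed by 0.76 ± 0.15 with both its probe sets, and the urokinase receptor gene Plaur by 0.82 ± 0.16 (adjusted p = 8.61e-05 and 9.11e-05). Sphk1, which makes the lipid mediator sphingosine-1-phosphate, was at 3.45, 3.62, 3.38 and 3.28 in air, near the filter level, and 5.78, 4.54, 6.20 and 6.09 with HCN (2.22 ± 0.32, adjusted p = 6.45e-07). The chemokine gene Cxcl14 (1.76 ± 0.44), the FOXO target Depp1 (1.42 ± 0.25), Enc1 (1.41 ± 0.24), Tcim (1.38 ± 0.18) and the Cdc42 effector gene Cdc42ep4 (1.37 ± 0.19) were supported rises with separate groups (adjusted p = 0.00213, 2.0e-05, 1.69e-05, 9.62e-08 and 2.90e-07).

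Antioxidant genes showed no common direction, with 2 rises and 2 falls among 16 NRF2 and oxidative stress genes, also without the 2 arrays. Hmox1, the heme-degrading enzyme, was at 5.47, 5.54, 5.22 and 5.44 in air and 7.10, 5.42, 7.63 and 7.85 with HCN (1.58 ± 0.30, adjusted p = 6.70e-05). It was high in 3 of 4 HCN hearts, while HCN replicate 2 lay within the air range. Catalase (Cat) changed by 0.76 ± 0.12 with both its probe sets, and glutathione reductase (Gsr) by -1.14 ± 0.20 with 1 of 2 (adjusted p = 3.01e-06 and 2.08e-05). The other probe set of Gsr was at 0.03.

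Genes of the hypoxia list, which holds targets of hypoxia-inducible factor and also its subunits, were called at shares near those of all genes. Of 24 measured, 1 rose (4.17%, against 6.96% of all genes) and 5 fell (20.8%, against 18.3%), and 1 rose and 4 fell without the 2 arrays. The 1 that rose was Hif1a (0.62 ± 0.11, adjusted p = 2.88e-05). It encodes the oxygen-regulated subunit itself and is not counted here as a target, and no other member was called as a rise. Ankrd37, an established hypoxia target, had the largest fall among genes with a single tested probe set and separate groups. It was at 6.18, 6.12, 6.39 and 6.68 in air and 4.08, 3.79, 4.15 and 4.61 with HCN, a change of -2.18 ± 0.27 (adjusted p = 1.86e-08), or -1.96 without the 2 arrays. Hilpda, a lipid droplet protein gene induced by hypoxia, changed by -0.62 ± 0.14 (adjusted p = 7.95e-04).

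Endothelial genes were among the falls. Of 10 endothelial markers 4 fell (40%, against 18.3% of all genes) and 0 rose, with a median of -0.40. Without the 2 arrays 2 fell, when 10.1% of all genes fell. With 2 within-gene factors as covariates, which cannot be told apart from the exposure, 0 fell and the median was 0.17. In whole-heart RNA, fewer cells of a type and less RNA per cell cannot be told apart. Hhex, a homeobox gene of early endothelium, was at 6.40, 6.66, 6.37 and 6.65 in air and 4.98, 5.54, 4.21 and 4.60 with HCN (-1.69 ± 0.22, adjusted p = 7.98e-08), and the change was -2.11 without the 2 arrays. Myct1, a gene of endothelial cells, fell with all 4 probe sets, from 8.17, 8.15, 8.26 and 8.04 to 6.96, 6.99, 5.97 and 7.65 at the representative (-1.26 ± 0.20, adjusted p = 3.48e-06). Egfl7 fell with all 3 probe sets (-0.64 ± 0.13, adjusted p = 1.13e-04).

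Of 27 angiogenic and endothelial regulators 3 rose (11.1%, against 6.96% of all genes) and 7 fell (25.9%, against 18.3%). Without the 2 arrays 1 rose and 4 fell, when 3.1% and 10.1% of all genes did so. Kdr, the main VEGF receptor, was at 8.21, 7.98, 8.06 and 8.09 in air and 7.33, 7.57, 7.37 and 7.30 with HCN (-0.70 ± 0.19, adjusted p = 0.00516). The decoy receptor gene Flt1 rose at its representative probe set by 0.89 ± 0.17 (adjusted p = 5.10e-05), with a median of 0.26 for the other 2. The adhesion molecule gene Pecam1 was at 8.10, 8.25, 8.16 and 7.89 in air and 6.60, 5.54, 7.66 and 7.79 with HCN (-1.20 ± 0.24, adjusted p = 1.30e-04). Its low values were in HCN replicates 1 and 2, without both of which the change was -0.37 (adjusted p = 0.234), and it was -0.75 without replicate 2 alone. The Notch target Hey1 fell by 0.98 and was called without the 2 arrays too (adjusted p = 2.24e-04 and 0.00375), and the Notch ligand Dll4 fell by 0.98 and was not, at -0.65 (adjusted p = 4.90e-04 and 0.0859).

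Tcf21, a transcription factor of cardiac fibroblasts, was at 8.47, 8.14, 8.27 and 7.32 in air and 6.83, 6.62, 6.72 and 7.15 with HCN (-1.21 ± 0.21, adjusted p = 1.79e-05), while 7 of the other 8 fibroblast markers were not called. The macrophage markers ran both ways, with 3 rises and 2 falls among 12. Lyve1, of resident macrophages and lymphatic endothelium, changed by 0.93 ± 0.23 and the complement gene C1qb by -0.65 ± 0.15 (adjusted p = 0.00223 and 9.15e-04). Neither was called without the 2 arrays, at 0.78 and -0.33 (C1qb was at -0.39 without HCN replicate 2 alone), where limma called 0 of the 12 and 4 had an unadjusted p under 0.05. Fabp4, a fatty acid carrier of fat and microvascular endothelium, rose by 0.36 ± 0.08 and the sarcomere gene Tnnt2 by 0.17 ± 0.05 (adjusted p = 5.96e-04 and 0.0153).

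Genes outside the lists held some of the largest supported falls. Il15ra, the receptor chain that presents IL-15, fell with both probe sets, from 6.33, 6.22, 6.25 and 6.55 to 5.20, 5.20, 4.72 and 5.28 (-1.24 ± 0.14, adjusted p = 2.12e-09). Usf1, a helix-loop-helix transcription factor, was at 6.97, 7.10, 7.06 and 6.66 in air and 5.47, 4.79, 5.79 and 6.01 with HCN (-1.44 ± 0.18, adjusted p = 6.03e-08). Ccdc69, with 2 of 3 probe sets called, was at 7.19, 7.48, 7.85 and 7.03 against 5.96, 6.58, 5.88 and 5.98 (-1.29 ± 0.24, adjusted p = 4.59e-05). These 3 kept their calls without the 2 arrays, with changes of -1.34, -1.05 and -1.46.

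Also called both times were Ska2, of the kinetochore (-1.19 ± 0.14), Sertad3 (-1.20 ± 0.18), Scrn2 (-1.22 ± 0.18), the protease gene Capn1 (-1.16 ± 0.18) and Il16, a cytokine of T cells (-1.23 ± 0.22). Among genes with a single tested probe set the same held for the laminin receptor gene Bcam (-1.76 ± 0.26), the cardiac growth factor gene Fgf16 (-1.74 ± 0.30), Zfp146 (-1.71 ± 0.24) and the CBP/p300-binding gene Cited4 (-1.66 ± 0.25). The changes of Scrn2, Bcam, Zfp146 and Cited4 shrank to -0.72, -1.09, -1.03 and -0.97 without the 2 arrays. All 9 had separate groups and adjusted p between 9.95e-09 and 4.33e-05. In contrast, Gna12, a G protein subunit, was at 7.56, 7.58, 7.76 and 6.83 in air and 5.18, 3.81, 6.79 and 6.75 with HCN (-1.80 ± 0.31, adjusted p = 1.37e-05) and its change was -0.66 without the 2 arrays (adjusted p = 0.0651). The UDP-galactose transporter gene Slc35a2 went from -1.16 ± 0.19 (adjusted p = 9.13e-06) to -0.42 (adjusted p = 0.0689). Gna12 fell with 2 of 3 probe sets and Slc35a2 with 3 of 4, whose other one was at 0.32.

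**Figure D3:**
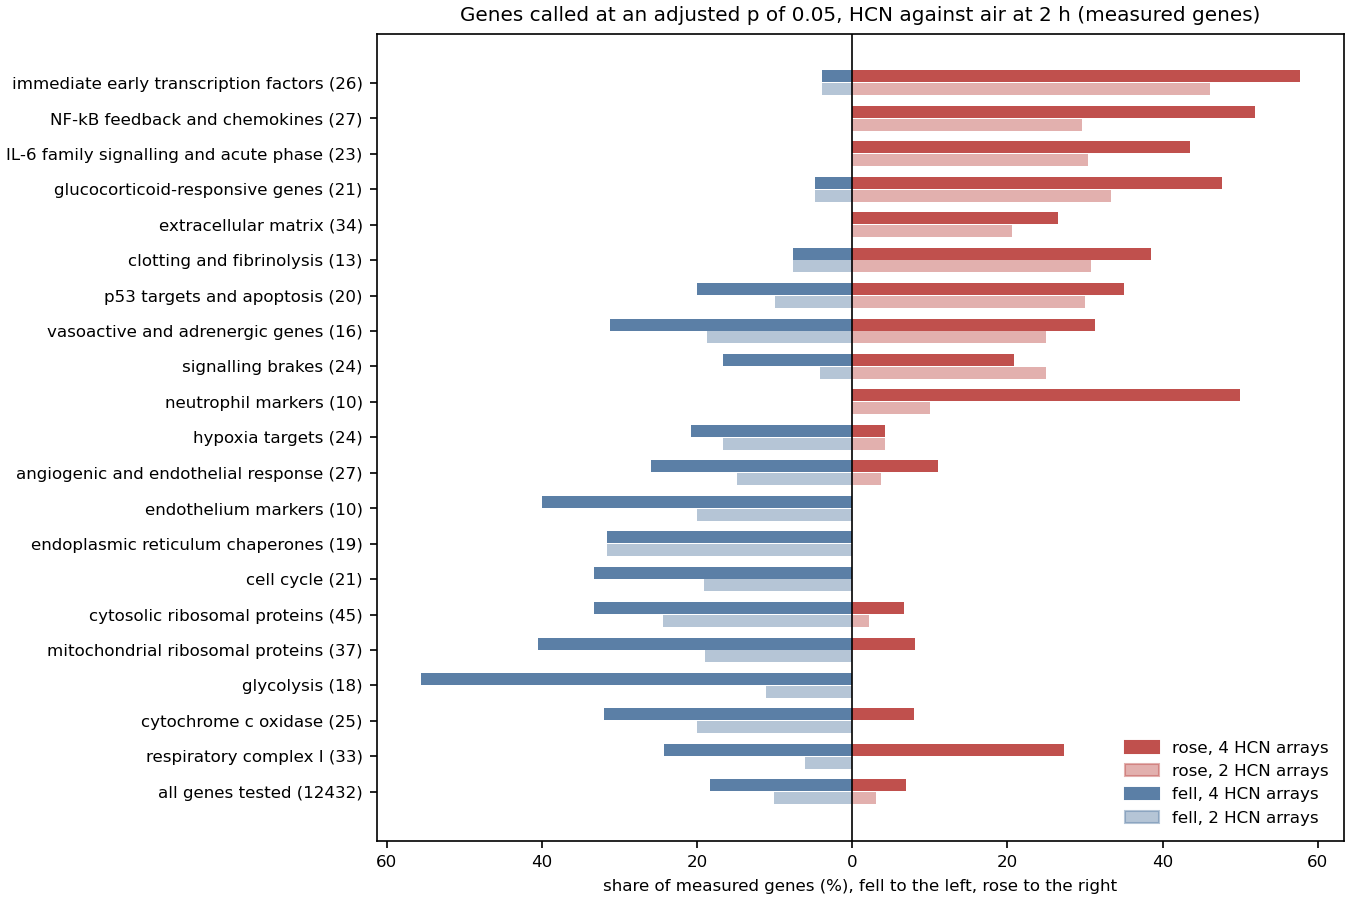
Share of the measured genes of 20 lists and of all 12432 genes that rose (right) or fell (left) at 2 h, with all 4 HCN arrays (dark bars) and without HCN replicates 1 and 2 (light bars); numbers in brackets are measured genes. Immediate early, NF-kB, IL-6 and glucocorticoid lists reach 57.7%, 51.9%, 43.5% and 47.6% rises against 6.96% of all genes. The falls in glycolysis drop from 10 of 18 genes to 2, while those of all genes drop from 18.3% to 10.1%.

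The counts of falling proliferation and interferon genes moved with air replicate 1, the array with the highest lymphocyte markers, and also with HCN replicates 1 and 2. Over all genes, falls went from 18.3% to 14.8% without air replicate 1 and to 10.1% without these 2 HCN arrays. Of 21 cell cycle genes 7 fell and 0 rose, with a median of -0.69, and without air replicate 1 there were 3 falls and a median of -0.19. Without HCN replicates 1 and 2 there were 4 falls and a median of -0.62. Tyms, an enzyme of thymidine synthesis, was at 6.66, 4.82, 4.80 and 4.74 in air and 4.49, 4.61, 3.94 and 3.37 with HCN (-1.15 ± 0.31, adjusted p = 0.00377), and at -0.69 without air replicate 1 (adjusted p = 0.0863). The replication genes Mcm6 (-1.04 ± 0.21) and Pcna (-0.49 ± 0.10) also had their highest value in that array (adjusted p = 1.80e-04 and 1.77e-04), without which Pcna was at -0.30. Of 18 interferon-responsive genes 4 fell (22.2%, near the 18.3% of all genes) and 0 rose, and 2 fell without HCN replicates 1 and 2. Without air replicate 1 limma called 0 in either direction, and 1 had an unadjusted p under 0.05. The 4 falls with all arrays include Oasl2 (-0.64 ± 0.22) and the immunoproteasome gene Psmb8, at 8.31, 7.003, 7.19 and 7.04 in air and 6.73, 6.94, 6.71 and 6.51 with HCN (-0.66 ± 0.23; adjusted p = 0.0251 and 0.0301). Psmb8 was at -0.35 without air replicate 1 and at -0.66 to -0.59 without HCN replicate 1, 3 or 4, and Oasl2 at -0.60 to -0.55 without air replicate 1 or 2 or HCN replicate 2 or 3, all not called. Neither was called without HCN replicates 1 and 2 (adjusted p = 0.0672 and 0.0594). Of 9 lymphocyte markers 3 fell, and 0 without air replicate 1, where 1 had an unadjusted p under 0.05. Without HCN replicates 1 and 2 limma also called 0 of the 9, and 5 had an unadjusted p under 0.05. Rac2, a GTPase of blood cells, was at 7.27, 4.99, 4.65 and 5.16 against 4.33, 3.92, 4.08 and 3.52 (-1.56 ± 0.38, adjusted p = 0.00153), and at -0.97 without air replicate 1. The part of lymphocyte RNA in these falls was not tested.

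Endoplasmic reticulum chaperones fell in part. Of 19, 6 fell (31.6%, against 18.3% of all genes) and 0 rose, with a median of -0.21, with the same count without the 2 HCN arrays and 4 falls without air replicate 1. Pdia6, a disulfide isomerase gene, changed by -0.52 ± 0.13, the lectin chaperone calreticulin (Calr) by -0.53 ± 0.15 with both probe sets, and Sdf2l1 by -0.91 ± 0.24 (adjusted p = 0.00168, 0.00546 and 0.00316). In all 3 genes air replicate 4 lay within the HCN range. Of 24 mRNA decay and splicing genes 1 rose and 4 fell (16.7%), led by the splicing factor gene Srsf6 (-0.58 ± 0.09, adjusted p = 3.77e-06), of whose 4 probe sets 1 was called.

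Of 25 subunit and assembly genes of cytochrome c oxidase, the enzyme that cyanide inhibits, 2 rose and 8 fell. These falls are 32% of the list, against 18.3% of all genes, with a median of -0.07 beside -0.07 for all genes, and 0 rose and 5 fell without the 2 arrays. Cox4i1, a core nuclear subunit, was at 13.16, 13.11, 13.14 and 13.20 in air and 13.19, 13.13, 13.19 and 13.16 with HCN (0.02 ± 0.03, adjusted p = 0.758). The heart and muscle subunit gene Cox6a2 was at 13.07, 13.01, 13.003 and 12.97 against 12.66, 12.45, 12.86 and 12.85 (-0.31 ± 0.06, adjusted p = 3.20e-05), with -0.16 without the 2 arrays (adjusted p = 0.0555). Cox8a went from -0.57 ± 0.11 to -0.21 (adjusted p = 1.60e-04 and 0.175), and to -0.34 without HCN replicate 2 alone, while Cox7a2l, which helps to join respiratory complexes, stayed called at -0.33 ± 0.06 and -0.39 (adjusted p = 5.07e-05 and 3.0e-04).

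The counts of the other energy lists also depended on the pair of arrays with high actin ratios. Over all genes, leaving out the pair took rises from 6.96% to 3.1% and falls from 18.3% to 10.1%, with 2 HCN arrays left. Complex I counted 9 rises (27.3%) and 8 falls (24.2%) among 33 genes with all arrays and 0 and 2 without the pair. Its gene Ndufa8 changed by -0.28 ± 0.05 and Ndufb9 by 0.23 ± 0.05 (adjusted p = 2.55e-05 and 1.61e-04), and Ndufb9 was not called without the pair (0.15). Complexes II and III with ATP synthase counted 2 rises (7.41%) and 8 falls (29.6%) among 27, and 3 and 4 without the pair. The ATP synthase gene Atp5l fell by 0.49 and the complex II gene Sdhd rose by 0.65 (SE 0.07 and 0.11, adjusted p = 1.36e-06 and 1.71e-05), and both were called without the pair, at -0.21 and 0.58. The citric acid cycle counted 1 rise (5.56%) and 6 falls (33.3%) among 18, and 0 and 1 without the pair.

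Glycolysis counted 0 rises and 10 falls among 18 (55.6%, against 18.3% of all genes), with a median of -0.21. Without the pair it counted 0 and 2, with a median of -0.07, when 10.1% of all genes fell. Gapdh was at 13.08, 13.16, 13.13 and 13.08 in air and 12.71, 12.56, 12.97 and 12.95 with HCN (-0.32 ± 0.05, adjusted p = 3.01e-06) and at -0.15 without the pair (adjusted p = 0.0197). Slc2a4, the insulin-regulated glucose transporter, went from -0.82 ± 0.14 to -0.31 and Pkm from -0.55 ± 0.12 to -0.32 (adjusted p = 2.38e-05 and 3.18e-04 with all arrays, 0.112 and 0.0967 without). In all 3 genes the lowest values were in HCN replicates 1 and 2. Aldoa was not called (0.14 ± 0.07, adjusted p = 0.111), and neither were its other 3 probe sets.

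Enzymes that clear cyanide and sulfide had no called rise. Of 11 measured 0 rose (against 6.96% of all genes) and 3 fell (27.3%, against 18.3%). Without the pair 0 rose and 2 fell, against 3.1% and 10.1% of all genes, and 1 of these 2 was among the 3. A list this small cannot show whether its shares differ from these. The 3 that fell with all arrays were the only members with an unadjusted p under 0.05 in that fit. Tst, rhodanese, which converts cyanide to thiocyanate, was at 7.32, 8.03, 7.81 and 7.38 in air and 7.48, 7.63, 7.06 and 7.02 with HCN (-0.34 ± 0.25, adjusted p = 0.344). Mpst, another sulfurtransferase, was at 8.38, 8.42, 8.54 and 8.17 against 7.56, 7.09, 7.98 and 8.03 (-0.71 ± 0.13, adjusted p = 5.30e-05) and was not called without the pair (-0.37, adjusted p = 0.0647). Mitochondrial thioredoxin, Txn2, fell with all 3 probe sets (-0.83 ± 0.14, adjusted p = 1.29e-05) and was at -0.33 without the pair (adjusted p = 0.0615). Kcnj11, the pore of the cardiac ATP-sensitive potassium channel, was at 0.07 ± 0.14 at its representative probe set (adjusted p = 0.785).

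Ribosomal protein genes fell in part. Of 45 cytosolic ones 3 rose and 15 fell (33.3%, against 18.3% of all genes), and 1 and 11 without the pair. Of 37 mitochondrial ones 3 rose and 15 fell (40.5%), and 0 and 7 without the pair. Rps19 was at 11.40, 11.23, 11.11 and 11.16 in air and 10.66, 10.40, 10.89 and 10.87 with HCN (-0.52 ± 0.08, adjusted p = 4.22e-06) and Rps20 rose by 0.51 ± 0.09 (adjusted p = 3.22e-05). Rps19 was at -0.34 without the pair, and of the 3 probe sets of Rps20 2 rose and 1 was at -0.23. Mrps12 changed by -0.66 ± 0.12 (adjusted p = 3.91e-05) and by -0.31 without the pair (adjusted p = 0.0651).

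Some genes had probe sets that ran against each other. Klf9, a glucocorticoid-responsive transcription factor, had 3 probe sets that rose, by 0.34 ± 0.10, 0.64 ± 0.10 and 0.98 ± 0.17, and 1 that fell by 1.81 (SE 0.43). Without HCN replicates 1 and 2 the falling probe set was at 0.05, while the others were at 0.28, 0.48 and 1.05. Rad21, of the cohesin ring, had probe sets at 0.13 ± 0.14, 0.83 ± 0.18 and -1.55 ± 0.27. The translocon gene Sec61a1 had them at 0.43 ± 0.12, 0.01 ± 0.13, -1.85 ± 0.30 and -1.24 ± 0.26, Tspyl1 at 0.48 ± 0.12 and -1.72 ± 0.26, and 2 of the 5 of the protease inhibitor gene Timp2 at 0.43 ± 0.14 and -1.75 ± 0.34. In all 5 genes the fall was smaller without the pair, and no single direction is given for them. The rising probe sets of Sec61a1 and Tspyl1 were not called without it (adjusted p = 0.269 and 0.0726). Tiparp, Adamts9 and Myct1 are the reverse case, with every tested probe set on 1 side both times.

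**Figure D4:**
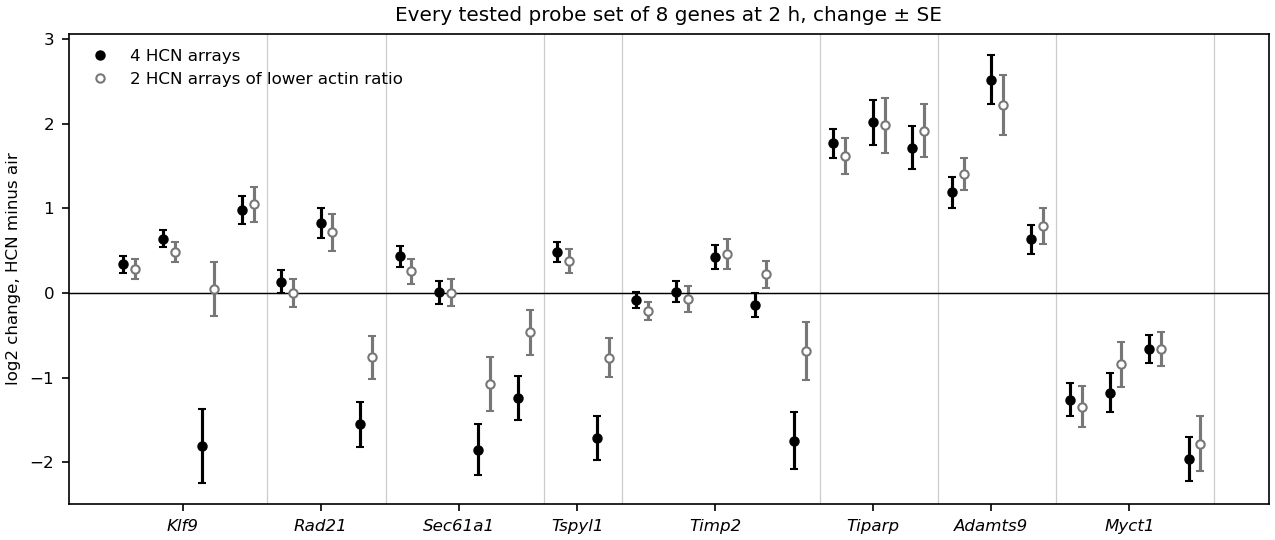
Change at 2 h, HCN minus air in log2 units ± SE, of every tested probe set of 8 genes, ordered within a gene from the highest to the lowest mean level. Filled points use all 4 HCN arrays and open points leave out HCN replicates 1 and 2. Klf9, Rad21, Sec61a1, Tspyl1 and Timp2 have probe sets on both sides of 0, and their falls of 1.24 to 1.85 shrink in the open points, while all probe sets of Tiparp, Adamts9 and Myct1 stay on 1 side.

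Differences between the change at 2 h and the changes at other times or by the other route were tested within the same fit. The change at 2 h differed from that at 1 h for 3714 probe sets (13.9%), of which 1375 were higher at 2 h (5.14%) and 2339 lower (8.74%), and for 2003 (7.49%) without the 2 arrays. The immediate early list counted 20 rises and 0 falls at 1 h, when 1.43% of all genes rose and 1.44% fell. Jun had changed by 2.10 at 1 h against -0.81 at 2 h, a difference of -2.91 ± 0.31 (adjusted p = 3.21e-09). The differences for Egr1, Fos, Egr2 and Cxcl1 were -2.30, -2.52, -2.12 and -2.04 (adjusted p = 0.0042, 0.0386, 5.83e-04 and 0.00171), so that these were lower at 2 h. Atf3, at 4.32 and 4.59, did not pass the test of the difference (0.27 ± 0.57, adjusted p = 0.815).

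Other genes were near 0 or had the opposite sign at 1 h. Fam107a was at -1.14 at 1 h and 1.24 at 2 h (difference 2.38 ± 0.48, adjusted p = 4.58e-04). Adamts9, Plxna2, which encodes a semaphorin receptor, and the deubiquitinase gene Zranb1 were at -0.08, -0.77 and -0.15 at 1 h and at 1.19, 0.51 and 1.12 at 2 h (adjusted p of the difference = 4.86e-04, 3.40e-04 and 4.19e-06). The change of Plxna2 at 2 h was not called without air replicate 1 or 4 or HCN replicate 1 or 4, at 0.31 to 0.47. Usf1, Ccdc69 and Id4, an inhibitor of helix-loop-helix factors, were at 0.38, 0.59 and 0.65 at 1 h and at -1.44, -1.29 and -1.09 at 2 h (adjusted p = 4.19e-06, 1.14e-04 and 0.00147). Of the glucocorticoid list 4 rose and 6 fell at 1 h, and 19 rose and 0 fell at 4 h, when 3.1% of all genes rose and 5.69% fell.

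The change at 2 h differed from that at 4 h for 1402 probe sets (5.24%), 470 higher at 2 h (1.76%) and 932 lower (3.48%). This count was 178 (0.665%) without the 2 arrays and ran from 405 to 2052 when single arrays were left out, with the lowest value without HCN replicate 2 at 2 h. It was also more than 1.5 times lower, at 770 to 895, without air replicate 3 or HCN replicate 1 at 2 h and without air replicate 1 or HCN replicate 2 or 3 at 4 h. Fam107a was higher again at 4 h, at 3.15 (difference -1.91 ± 0.48, adjusted p = 0.0126). The B cell and fat cell factor gene Ebf1 had risen at 2 h, by 1.06 with all 3 probe sets, and was at -1.09 at 4 h (difference 2.16 ± 0.24, adjusted p = 6.64e-08). Otud1 and Akap12 were at 0.18 and 0.12 at 4 h (differences 2.87 and 1.76, adjusted p = 2.18e-06 and 5.12e-06). Ankrd37 and Hhex were at 0.02 and -0.15 (differences -2.21 and -1.53, adjusted p = 3.03e-04 and 0.00214).

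Smaller differences from 4 h were found for Tcim (1.02), Cdc42ep4 (0.91), Il15ra (-1.38), the choline transporter-like gene Slc44a2 (-1.36) and Gna12 (-1.53), with adjusted p of 0.0132, 0.0327, 6.21e-06, 0.00904 and 0.0279. The change of Slc44a2 at 2 h was not called without air replicate 3 or HCN replicate 1 or 3, at -0.64 to -0.39. Neutrophil markers counted 0 rises at 1 h and 5 of 10 at 4 h. S100a8 was at -0.09 at 1 h, 1.98 at 2 h and 2.61 at 4 h, and neither difference from 2 h was called (adjusted p = 0.0552 and 0.703).

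**Figure D5:**
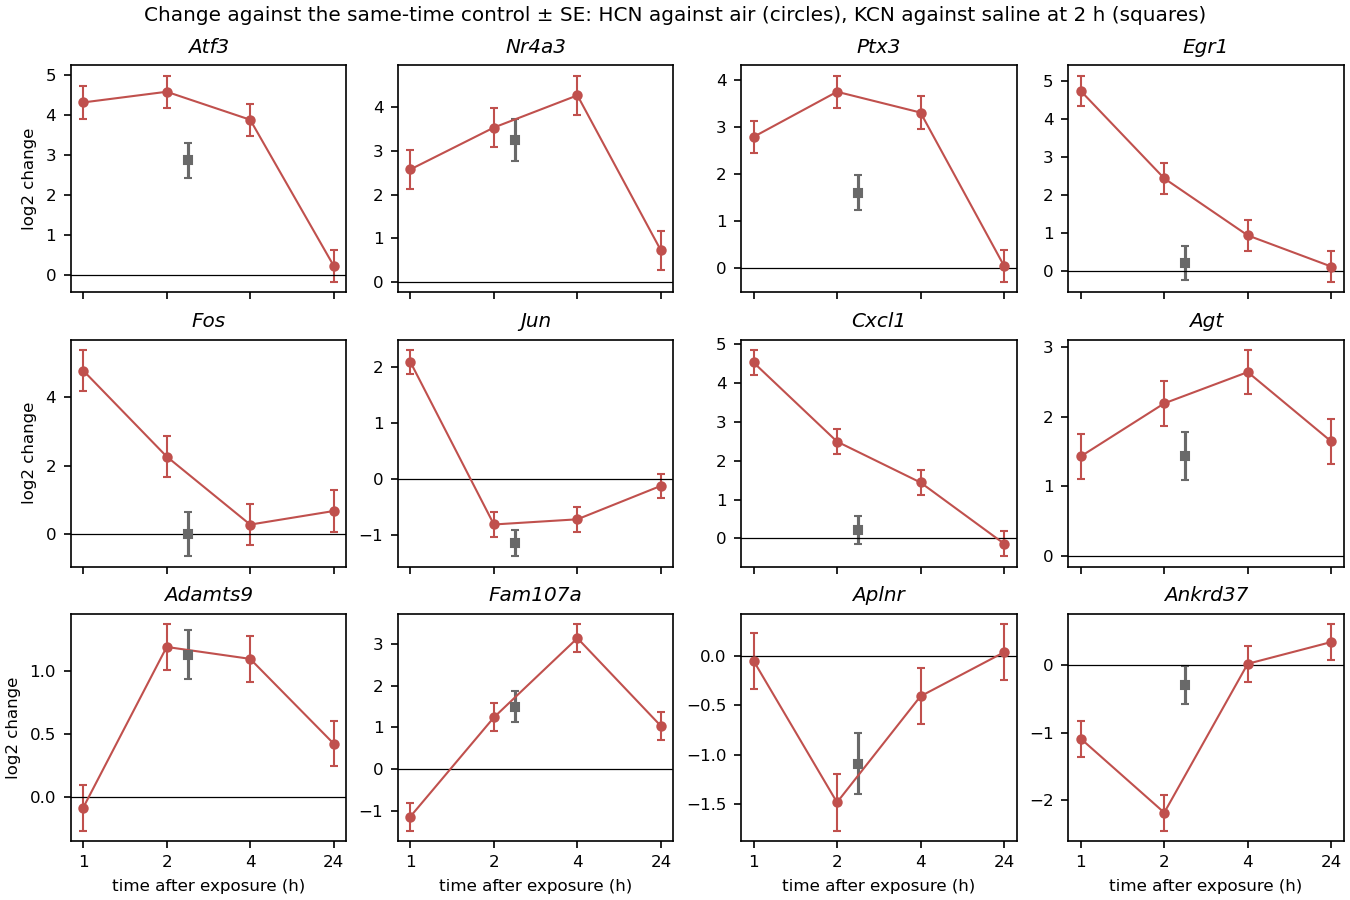
Change in log2 units ± SE of the representative probe set of 12 genes for HCN against air at 1, 2, 4 and 24 h (red circles, times evenly spaced) and for KCN against saline at 2 h (grey squares, drawn beside the 2 h point). Atf3 stays between 3.88 and 4.59 from 1 h to 4 h, Jun crosses from 2.10 to -0.81, and Aplnr and Ankrd37 are lowest at 2 h.

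The effect of inhaled HCN at 2 h differed from that of injected KCN at 2 h for 1536 probe sets (5.74%), 576 higher (2.15%) and 960 lower (3.59%) after inhalation. Quantile normalization gave 779 and 801. The count was 219 (0.819%) without the 2 arrays and 20 in a fit of only these 4 groups. Among single arrays left out it was lowest without HCN replicate 2, at 656, and was 954 without HCN replicate 1 and 902 without saline replicate 2. Each effect was taken against its own route's control, and since route and dose both differ, their parts cannot be told apart. KCN changed Atf3 by 2.87, Nr4a3 by 3.25 and Aplnr by -1.09, and the differences from HCN were not called (1.72, 0.29 and -0.39, adjusted p = 0.0742, 0.855 and 0.646). Cxcl1, Egr1 and Ankrd37 were at 0.22, 0.20 and -0.29 after KCN, and their differences were 2.28, 2.23 and -1.89 (adjusted p = 0.00314, 0.0181 and 0.00262).

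Among supported genes, Ctla2a, a cysteine protease inhibitor gene, was at 0.87 after HCN and -0.86 after KCN (difference 1.73 ± 0.35, adjusted p = 0.00257). Higher effects after HCN were also found for Sphk1 (1.46), the SNARE protein gene Stx11 (1.37) and the endocytic gene Ehd1 (1.09), with adjusted p of 0.0493, 0.0107 and 0.00135. Lower effects were found for Vps51, of the retrograde transport complex GARP (-1.71), and Scrn2 (-1.52), with adjusted p of 0.00277 and 4.04e-04. At 2 h after HCN, Vps51 was not called without the 2 arrays (adjusted p = 0.19), nor Stx11 without air replicate 3 (0.64) or HCN replicate 4 (0.56). After KCN at 2 h, when 2.02% of all genes rose and 4.36% fell, 6 immediate early genes rose and 2 fell.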

How the data were processed

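RNA from 69 mouse hearts was measured on 1-colour arrays, 1 array per heart, from 100 ng of RNA per the labels. The authors deposited 1 series table of log2 signals from 1.83 to 13.94. The submitters' processing notes name MAS5, and its role is not given in the sources used here. The injection and inhalation arrays may have been normalized as separate sets, so levels were compared only within a route. Array number limits the precision.

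Groups came from the array titles. After leaving out the control probe sets, limma 3.58.1 in R 4.3.3 (lmFit, contrasts, eBayes with an intensity trend) was fitted to 18 group means of all 69 arrays (51 residual degrees of freedom), with Benjamini-Hochberg adjustment over 26755 probe sets. RNA quality measures had an exact permutation test. The fit was tested on simulated data. GEO's platform annotation gave 28898 probe sets a single symbol and 551 several, and 19917 tested ones were named.

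The members and gene lists were chosen with earlier results of these data known. Named were the 12 largest supported rises and falls and the 6 largest among genes with 1 probe set, both with separate groups, from each list as many as 5 genes of lowest p, the 5 genes with the widest opposite calls, genes whose effects differed by time or route, and a set of stress genes. Of that set Mt2, Ppargc1a and Thbs1 have no value here, and 1 gene is not reported here. Alternatives were other scalings, filters, variance models, RNA quality terms, a replicate block and leaving out arrays. Within-gene factors are the leading patterns in how the probe sets of a gene deviate from their mean.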

Additional observations from a re-analysis of the deposited data

Results flagged for a closer look

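Of 332 groups of 4 arrays examined, 17 held an array far from the other 3. Chance alone gives about 1 in 20, and this count is near that share. Air replicate 1 stood apart most often. In log2 signal it was at 7.92 for Egr1 against 6.87 to 7.04 in the other air arrays, at 9.06 for Nfkbia against 8.72 to 8.76, at 5.10 for Per1 against 5.69 to 5.71, at 6.66 for Tyms against 4.74 to 4.82 and at 8.31 for Psmb8 against 7.003 to 7.187. It was also at 2.67 for Scgb1a1 against 11.23 to 11.86, and its mean over the airway markers was 3.39 against 7.42 to 7.68.

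Air replicate 3 stood apart at 8.13 for Sec61a1 against 8.48 to 8.54, at 9.84 for Cat against 10.10 to 10.12, at 5.92 for Edn1 against 5.54 to 5.60 and at 10.96 for Cox7a2l against 10.74 to 10.78. Air replicate 4 did so at 6.11 for Il6ra against 5.50 to 5.60 and at 8.32 for Pdia6 against 8.86 to 8.94. Among the HCN arrays, replicate 1 was at 8.54 for Flt1 against 8.76 to 8.79, replicate 2 at 6.58 for Ccdc69 against 5.88 to 5.98, replicate 3 at 4.72 for Il15ra against 5.20 to 5.28 and replicate 4 at 8.97 for Ccn1 against 9.36 to 9.44.

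The change at 2 h differed from that at 1 h, by limma, for 3714 probe sets, from that at 4 h for 1402 and from that of KCN at 2 h for 1536. Among genes chosen by rule, lower at 2 h than at 1 h were Jun (-2.91), Fos (-2.52), Egr1 (-2.30), Egr2 (-2.12), Cxcl1 (-2.04), Ccdc69 (-1.88) and Usf1 (-1.82), and higher were Fam107a (2.38), Plxna2 (1.28), Adamts9 (1.27) and Zranb1 (1.27), with adjusted p of at most 0.0386.

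Against 4 h, the change at 2 h was higher for Ebf1 (2.16), Tcim (1.02) and Cdc42ep4 (0.91) and lower for Fam107a (-1.91), Gna12 (-1.53), Il15ra (-1.38) and Slc44a2 (-1.36), with adjusted p of at most 0.0327. Against KCN it was higher for Ctla2a (1.73), Sphk1 (1.46), Stx11 (1.37) and Ehd1 (1.09) and lower for Vps51 (-1.71) and Scrn2 (-1.52), with adjusted p of at most 0.0493.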

How the results depend on the processing

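The counts of called probe sets given here are for HCN against air, 2 h minus 1 h, 2 h minus 4 h, and inhaled minus injected, in this order, beside 6764, 3714, 1402 and 1536. They were 3279, 2003, 178 and 219 without the 2 HCN arrays of highest actin ratio, 3018, 1539, 192 and 260 with the actin covariate, 949, 465, 98 and 357 with 2 within-gene factors, 10, 50, 51 and 21 with 3 such factors, 1936, 1687, 98 and 20 in a fit of only the groups compared, and 3161, 1523, 716 and 539 with 1 probe set per gene, where fewer are tested. With 1 factor the last pair was 535 and 259. The 2 h minus 4 h count was 929 without a filter, the inhaled minus injected count 881 with array weights, and the first count 2787 at 1.5-fold or more. Leaving out single arrays gave 5084 to 6860, 2937 to 4087, 405 to 2052 and 656 to 2208, in each case lowest without HCN replicate 2 at 2 h. The other scalings, filters and variance models stayed within 1.5 times. The cause of these shifts was not tested.

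The deviations of same-numbered HCN and air arrays had correlations of 0.20, 0.00386, 0.0378 and -0.0463 for replicates 1 to 4. Those of unlike number ran from -0.14 to 0.10, so that only the value for replicate 1 stood above them. Whether the numbers pair the hearts is not settled by these values. A replicate block gave 6876, 3809, 1397 and 1027.

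The difference in the actin ratio ran from 0.52 to 0.96 over single arrays left out, with p = 0.0286 in the exact permutation test without HCN replicate 4. That in the Gapdh ratio ran from 0.41 to 0.64, past the threshold unadjusted only with all air arrays kept, and that in 18S from -0.56 to 0.00738, turning sign without HCN replicate 2.

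For the 149 named genes, 3003 of 3424 values under alternatives kept direction and call. At the same sign, 349 lost the call and 18 gained it, and 54 changed sign, called or not. The sign changed for Cox4i1 (-0.0521) with quantile normalization, for Klf4 (-0.0457), Kcnj11 (-0.0821) and Ankrd1 (0.0512) with the actin covariate, and for Kcnj11 (-0.0211) and Nppb (-0.0167) with 1 factor. With 2 factors it changed for Klf4 (-0.0015), Pecam1 (0.0644), Gna12 (0.0433), Cox4i1 (-0.0347), Tst (0.22), Ankrd1 (0.0789), Scgb1a1 (0.42), Calr (0.0672), C1qb (0.0291), Pkm (0.16) and Ndufb9 (-0.0263). With 3 factors it changed for Klf4 (-0.25), S100a8 (-1.66), S100a9 (-1.66), Ccn2 (-0.14), Dll4 (0.0299), Gna12 (0.17), Slc35a2 (0.39), Cited4 (0.23), Cox4i1 (-0.0781), Cox6a2 (0.052), Rad21 (-0.13), Sec61a1 (-0.48), Ehd1 (-0.0636), Scgb1a1 (0.96), Tnnt2 (-0.0581), Hilpda (0.0268), Calr (0.00526), Mrps12 (0.25), Gapdh (0.12), Slc2a4 (0.0773), Pkm (0.13), Cox8a (0.029), Txn2 (0.17) and Atp5l (0.0835). Without the 2 arrays it changed for Nppb (-0.0504), Rad21 (-0.0057) and Scgb1a1 (0.39). Over single arrays left out, Nppa ran from -0.13 to 0.00133, Nppb from -0.16 to 0.30, Pnmt from -0.00611 to 0.24 and Scgb1a1 from -2.79 to 1.27. Gene lists without air replicate 1 were an alternative chosen after seeing the data. Genes near the filter level of 3.23 have signals close to background, where changes are less well measured.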

Other observations

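Other gene groups moved little or in both directions at 2 h, beside 6.96% of all genes that rose and 18.3% that fell. Of 26 genes of fatty acid oxidation, the main fuel pathway of the heart, 2 rose and 4 fell, and 2 and 1 without HCN replicates 1 and 2. Of 24 genes of calcium handling and excitation 1 rose and 2 fell, and of 21 sarcomere genes 1 rose and 3 fell. Among genes of protein turnover, 2 rose and 7 fell of 30 proteasome genes, and 3 rose and 4 fell of 19 ubiquitin ligase and autophagy genes.

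The integrated stress response, which slows protein synthesis under stress, counted 1 rise and 2 falls among 19 genes, and cytosolic heat shock proteins 4 rises and 2 falls among 16, of which 1 rise remained in the count without the pair of arrays. Circadian clock genes counted 2 rises and 0 falls among 17. Markers of smooth muscle and pericytes counted 2 rises among 7, of platelets 1 among 9 and of fat cells 1 among 7, and skeletal muscle markers 1 rise and 1 fall among 6. For atrial, erythroid and Schwann cell markers limma called 0 of 7, 0 of 5 and 0 of 7.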
